A study of Mus musculus with 9 samples.

Results

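Genes of blood vessel growth were followed across 9 cell lines derived from 4T1, a metastatic mammary carcinoma of the mouse. The set is a list of 34 genes of secreted angiogenic factors, their receptors and related enzymes. They were chosen by name with earlier results of these data known, and 32 could be tested among 19938 genes. The list holds 25 secreted factors, 7 receptors (Nrp1, Nrp2, Flt1, Kdr, Tek, Tie1 and Met) and 2 enzymes of the cell (Ece1 and Nos3). The secreted factors Angptl2 and Ang are not analysed here, the former because no probe set carried its symbol, the latter because it shared its probe set with Rnase4.

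The 9 lines came from 9 independent mice, per the series' design text, and were measured on 1 array each. The 3 primary lines (4T1-T2) came from primary tumors, the 3 lung lines (4T1-LM2) from lung metastases and the 3 brain lines (4T1-BM2) from brain metastases. Beyond the 4T1 background the labels name no genotype, agent or treatment, and they do not give the strain, age or sex of the mice or say whether lines of 1 origin share a selected ancestor. Lines were thawed and grown in parallel and RNA was extracted together, so the values describe cultured tumor cells without a host vessel around them. Values are log2 intensities, a change of 1 is a 2-fold change, and levels of different genes are not compared because each rests on its own probes.

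The listed epithelial markers (Epcam, Cdh1, Krt7, Krt8, Krt18 and Krt19) were all well above 4.21, the median level of probe sets without a gene symbol, which serves here as the reference for background. Their mean level per line was 10.98 to 11.31 in brain, 10.76 to 10.91 in lung and 10.45 to 10.81 in primary lines. Cdh1 (log2 change 0.90 ± 0.19, SE) and Krt19 (1.27 ± 0.25) were called higher in brain than in primary lines (limma adjusted p = 0.0386 and 0.0262). Epcam (0.45), Krt7 (0.55), Krt18 (0.07) and Krt8 (-0.08) were not (limma adjusted p = 0.230, 0.0904, 0.863 and 0.782). Against lung lines 0 of the 6 were called. The part of these markers in the differences below was not tested. Of 15 endothelial markers, Emcn, Kdr and Tek lay below background in all lines and Pecam1 (4.08 to 4.40) and Cdh5 (3.99 to 4.34) close to it, while Flt1 (7.35 to 8.18), Egfl7 (6.46 to 6.81), Cldn5 (5.10 to 5.52) and Vwf (5.01 to 5.23) lay above it. The mean of the 15 was 4.57 to 4.74 in brain, 4.65 to 4.77 in lung and 4.65 to 4.72 in primary lines. Of the endothelial list 1 gene was called, the member Flt1 in brain against primary lines. Fibroblast and pericyte, leukocyte, brain and alveolar marker lists had 0 called members in each comparison, but not all of these markers lay near background. Pdgfra (7.25 to 7.79), Col1a1 (6.07 to 6.54), Col1a2 (5.99 to 6.92), Cd68 (5.73 to 6.22) and Cd14 (5.69 to 6.50) lay above it in all lines. Dcn, Lum, Rgs5, Ptprc and Itgam lay below it in all lines. Arrays had medians of 5.06 to 5.19, and the spread around the gene medians was widest in brain line 3 (0.178) and lung line 1 (0.164), against 0.0886 to 0.126 in the others.

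Vessels grow when tumor or stromal cells release factors that bind receptors on endothelial cells and pericytes. VEGF ligands act through the receptors encoded by Flt1 and Kdr, with neuropilins as coreceptors, and set off sprouting, while angiopoietins act through the TIE receptors and set how stable a vessel is. PDGF ligands recruit pericytes and fibroblasts, FGF ligands act on many cell types, and endothelins constrict vessels and stimulate growth. Tumor cells are known sources of such ligands, and they can also express some of the receptors.

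Brain lines differed from primary lines in 6 of the 32 members: Fgfbp1, Pdgfb, Edn1 and Nrp1 rose, Angpt1 and Flt1 fell, and 26 did not pass. Passing means an adjusted p under 0.05 in limma, by Benjamini and Hochberg's method over all genes, and such a gene is termed called. The members called were 18.8% of those tested, beside 3.13% of all genes (1.56% higher and 1.57% lower). Because the list was chosen with earlier results of these data known, such shares are descriptions. In brain against lung lines 4 members passed, with Fgfbp1, Pdgfb and Edn1 higher and Angpt1 lower, or 12.5% beside 1.98% of all genes (0.913% higher and 1.07% lower). Both comparisons use the same brain lines. In lung against primary lines 0 members passed in limma, as did 0 of all genes (0%), with the smallest adjusted p at 0.975. At an unadjusted p under 0.05 there were 3 members, Vegfa, Fgf1 and Flt1, and 4.74% of all genes, while 10 members reached it in brain against primary (15.8% of all genes) and 9 in brain against lung lines (14.9%). Lines of both origins did not overlap for 8 members in brain against primary (17.8% of all genes), 9 in brain against lung (16.9%) and 3 in lung against primary lines (8.71%). The F test over the 3 origins called 5 members, Angpt1, Pdgfb, Edn1, Fgfbp1 and Nrp1, beside 2.36% of all genes. The median log2 change of the members was 0.0089 in brain against primary, -0.00036 in brain against lung and 0.0078 in lung against primary lines, beside 0.0049, -0.0096 and 0.013 over all genes. The members moved in both directions, and their median lay close to that of all genes in each comparison.

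**Figure D1:**
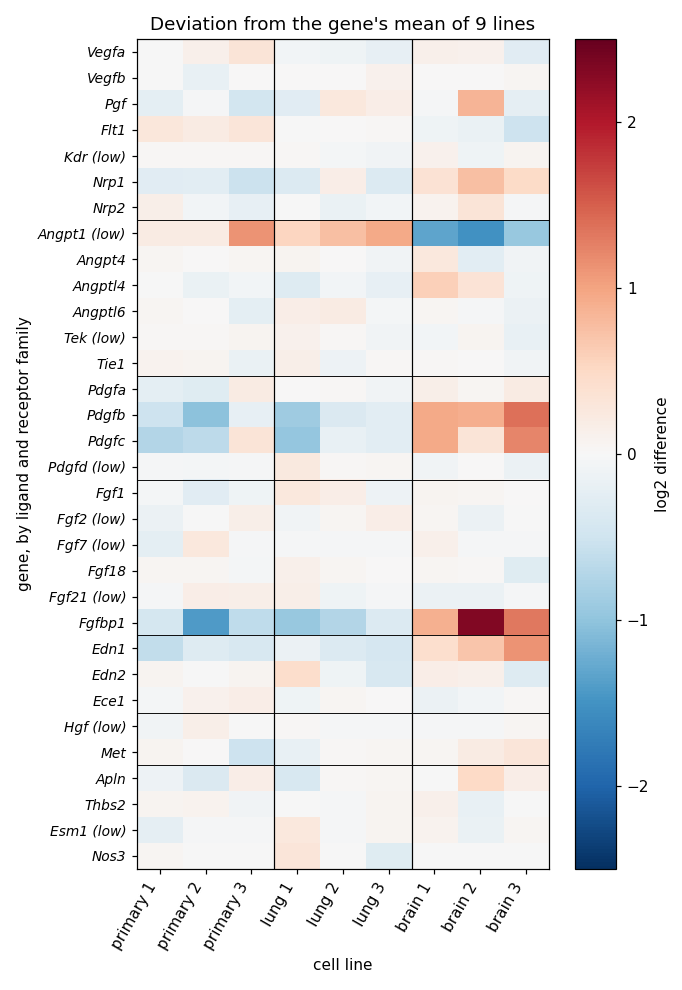
Each cell is the log2 difference of a member gene in 1 line (x axis) from that gene's mean over the 9 lines, with genes (y axis) in blocks of ligands and their receptors; "low" marks genes with an origin mean below 4.21. Fgfbp1, Pdgfb, Pdgfc, Edn1 and Nrp1 were above their means in every brain line, as were Met, Pdgfa, Fgf1 and Vegfb by smaller amounts. Angpt1 and Flt1 were among the genes below their means in every brain line.

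The sequences just upstream of the 4 called members with a RefSeq promoter entry are shown because 3 of these genes (Edn1, Fgfbp1 and Nrp1) were higher in brain lines and 1 (Flt1) lower. Each is the 250 bases before the annotated start, 5′ to 3′ on the gene's strand, in assembly GRCm38.p6. The windows lie at chr13:42301226-42301475 (+ strand) for Edn1, chr5:43981800-43982049 (- strand) for Fgfbp1, chr8:128358823-128359072 (+ strand) for Nrp1 and chr5:147726012-147726261 (- strand) for Flt1. Capitals mark matches to any of 3 motifs searched on both strands: ACGTG, the core of the hypoxia response element, TGANTCA, bound by AP-1, and CATTCC, bound by TEAD factors.
Edn1: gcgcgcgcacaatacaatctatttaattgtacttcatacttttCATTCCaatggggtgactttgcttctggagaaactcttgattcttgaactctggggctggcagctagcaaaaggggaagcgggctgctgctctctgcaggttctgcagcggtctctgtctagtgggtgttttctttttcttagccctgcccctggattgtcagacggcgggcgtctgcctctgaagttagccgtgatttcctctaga
Fgfbp1: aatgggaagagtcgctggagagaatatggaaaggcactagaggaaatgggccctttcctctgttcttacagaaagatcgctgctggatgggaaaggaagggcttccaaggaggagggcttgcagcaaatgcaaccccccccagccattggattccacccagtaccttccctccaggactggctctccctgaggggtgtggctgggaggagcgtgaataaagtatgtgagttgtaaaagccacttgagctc
Nrp1: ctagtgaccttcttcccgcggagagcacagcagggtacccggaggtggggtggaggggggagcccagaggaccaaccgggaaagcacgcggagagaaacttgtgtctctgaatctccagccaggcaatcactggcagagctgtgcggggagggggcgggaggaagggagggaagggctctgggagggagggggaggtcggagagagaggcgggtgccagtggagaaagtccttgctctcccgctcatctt
Flt1: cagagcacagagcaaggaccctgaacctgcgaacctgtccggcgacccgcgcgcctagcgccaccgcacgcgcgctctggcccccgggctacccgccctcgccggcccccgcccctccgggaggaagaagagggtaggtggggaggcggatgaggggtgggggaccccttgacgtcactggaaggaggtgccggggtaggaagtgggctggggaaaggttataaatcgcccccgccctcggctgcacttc
Among these stretches only that of Edn1 held a match, CATTCC at position -207 from the start, and the 50 bases after the Edn1 start held 1 match to ACGTG, on the other strand. Over all 32851 promoter windows, from 250 bases before to 50 after the start, ACGTG was present in 19.6%, TGANTCA in 7.81% and CATTCC in 14.7%. Of the 34 windows of the 27 members with an entry, 5 held ACGTG, 1 held TGANTCA (in Met) and 2 held CATTCC (Edn1 and Pdgfc). A match is a string of letters and not a measured binding site.

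Pdgfb and Pdgfc were the PDGF ligand genes with the largest differences. Pdgfb encodes the chain of PDGF-BB, the ligand that draws pericytes to new vessels. Its log2 level was 8.47, 8.42 and 8.90 in brain lines 1 to 3, 6.63, 7.16 and 7.25 in lung lines and 6.99, 6.48 and 7.30 in primary lines. Every brain line lay more than a full log2 unit above every other line, and lung and primary lines overlapped. Pdgfb was 3.18-fold higher in brain than in primary lines (log2 change 1.67 with an SE of 0.23, n = 3 per origin, limma adjusted p = 0.00568) and 2.99-fold higher than in lung lines (1.58 ± 0.23, adjusted p = 0.0109). The call against primary lines held under every alternative run, with any 1 line left out giving log2 changes of 1.45 to 1.86. The call against lung lines was lost without lung line 2 (0.0516), with every probe set tested as its own feature (0.05495) and without both arrays of widest spread (log2 change 1.24, adjusted p = 0.0997).

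Pdgfc encodes a latent ligand that has to be cut before it binds the PDGF receptor. It stood at 8.65, 8.02 and 8.93 in brain, 6.73, 7.51 and 7.43 in lung and 6.96, 7.04 and 8.01 in primary lines. All brain lines were above all others, but brain line 2 exceeded primary line 3 by very little, and the lines of each origin were far apart (SD 0.46, 0.43 and 0.59 in brain, lung and primary lines). The log2 differences of 1.19 ± 0.32 against primary and 1.31 ± 0.32 against lung lines did not pass (limma adjusted p = 0.0863 and 0.0811). Without primary line 3 both passed (0.0384, log2 change 1.53, and 0.0419). With the mouse number as a block the brain against lung difference passed as well (limma adjusted p = 0.0321), but the labels do not give this pairing of lines. Pdgfa, whose product forms PDGF-AA, was 8.55, 8.45 and 8.61 in brain, 8.42, 8.44 and 8.31 in lung and 8.16, 8.09 and 8.61 in primary lines. Its difference from primary lines, 0.25 ± 0.12, did not pass (limma adjusted p = 0.385) but did without primary line 3 (0.41, adjusted p = 0.0457). Primary line 3 was thus the highest of the primary lines for Pdgfa, Pdgfb and Pdgfc. Pdgfd lay between 2.83 and 3.21 in all lines, below background.

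Fgfbp1 had the largest log2 differences of the members. It encodes a secreted carrier that releases FGF ligands from the matrix. Its level was 7.01, 8.43 and 7.43 in brain, 5.17, 5.39 and 5.77 in lung and 5.68, 4.70 and 5.47 in primary lines, so that the lowest brain line lay above the highest of the others and brain line 2 stood apart from the other two. It was 5.07-fold higher in brain than in primary lines (log2 change 2.34 ± 0.35, limma adjusted p = 0.0093) and 4.53-fold higher than in lung lines (2.18 ± 0.35, adjusted p = 0.0193). Primary line 2 (4.70) was close to background, which adds to the signal at low levels, so these folds are those of the array and not of the transcript. With brain line 2 left out the log2 change against primary lines was 1.94, and the call held. The call against primary lines was lost with only the 6 arrays compared (0.0632) and without both arrays of widest spread (0.0539). Against lung lines it was lost without lung line 1 (0.0764) or 2 (0.0905), with every probe set (0.0746), with only the 6 arrays compared (0.0556) and without both arrays of widest spread (0.140). The FGF ligands themselves showed no such difference: of 5 on the list, 0 passed in any comparison. Further FGF genes tested outside the list did not pass either. Among them the receptor gene Fgfr2 was 9.57, 9.54 and 9.22 in brain, 9.79 to 9.92 in lung and 9.76 to 9.89 in primary lines. Its log2 differences were -0.39 ± 0.10 against primary and -0.42 ± 0.10 against lung lines (limma adjusted p = 0.0651 and 0.0648). Fgfrl1 was also lower in all brain lines than in any other (limma adjusted p = 0.102 and 0.300). Fgf2, Fgf7 and Fgf21 lay between 3.41 and 4.16, below background, in all lines. Fgf1 was 4.82 to 4.88 in brain, 4.68 to 5.07 in lung and 4.52 to 4.76 in primary lines, and Fgf18 was 5.06 to 5.49 over all 9 lines.

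Edn1 encodes endothelin-1, a peptide that constricts vessels and stimulates many cell types. Its log2 level was 5.29, 5.56 and 5.99 in brain, 4.71, 4.53 and 4.44 in lung and 4.25, 4.54 and 4.46 in primary lines. Lung and primary lines were close to background and overlapped, and the brain lines were all higher. The change was 2.29-fold against primary lines (log2 change 1.20 ± 0.16, SE, limma adjusted p = 0.00568), a call kept under every alternative run, and 2.08-fold against lung lines (1.05 ± 0.16, adjusted p = 0.0148). Since background adds to both sides at such levels, these log2 values are those of the array and not of the transcript. The call against lung lines was lost without lung line 2 (0.0755) or 3 (0.0596), in a fit of just the 6 arrays (0.0592) and with every probe set (0.0639). Edn2, a second endothelin gene, was 4.30 to 5.14 over all lines, and Ece1, the enzyme that cuts the endothelin precursor, was 8.69 to 8.87 in brain and 8.73 to 8.89 in lung lines with a mean of 8.90 in primary lines, with log2 differences of -0.05 ± 0.19 and -0.13 ± 0.08 in brain against primary lines that did not pass (limma adjusted p = 0.952 and 0.546).

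**Figure D2:**
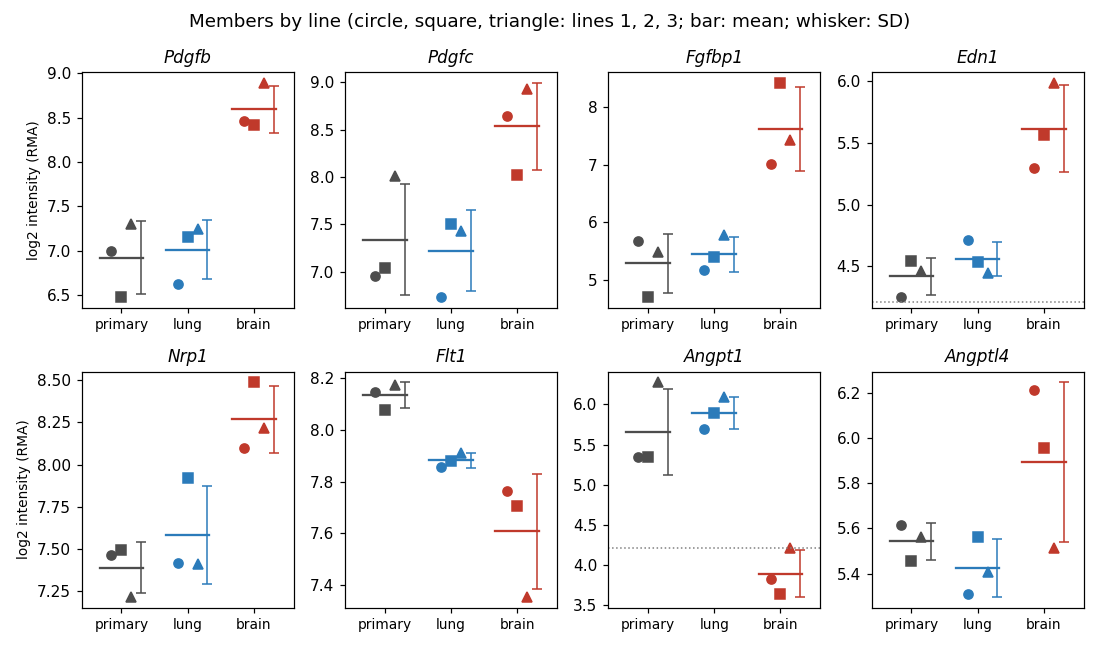
Log2 intensity (y axis) of 8 members in each line, by origin (x axis), with horizontal bars for the mean and whiskers for the SD of 3 lines; the dotted line is the background reference of 4.21 where it falls in the panel. The 3 brain lines lie above all others for Pdgfb, Pdgfc, Fgfbp1, Edn1 and Nrp1 and below all others for Flt1 and Angpt1, while Angptl4 overlaps.

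Of the VEGF system, the receptor genes Flt1 and Nrp1 passed against primary lines, and 0 of the 3 ligand genes on the list did. Flt1, which encodes VEGF receptor 1, was 8.15, 8.08 and 8.18 in primary, 7.86, 7.88 and 7.91 in lung and 7.76, 7.70 and 7.35 in brain lines. The 3 origins did not overlap, with lung lines between the others. Of the 32 members Flt1 alone had this order, beside 1.01% of all genes. It was 1.44-fold lower in brain than in primary lines (log2 change -0.53 ± 0.10, SE, limma adjusted p = 0.0250), while the steps from primary to lung (-0.25 ± 0.10, adjusted p = 0.975) and from lung to brain lines (-0.27 ± 0.10, adjusted p = 0.234) did not pass. The call was lost without brain line 2 (0.0501), lung line 2 (0.0504) or primary line 1 (0.08395), 2 (0.0690) or 3 (0.0839). It was also lost in a fit of just the 6 arrays (0.104) and with every probe set (0.0773).

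Nrp1, which encodes neuropilin-1, a coreceptor for VEGF and class 3 semaphorins, moved the other way. It was 8.10, 8.49 and 8.21 in brain, 7.41, 7.92 and 7.41 in lung and 7.46, 7.49 and 7.21 in primary lines, with brain line 1 only slightly above lung line 2. It was 1.84-fold higher in brain than in primary lines (log2 change 0.88 ± 0.15, SE, limma adjusted p = 0.0165). That call was lost without brain line 2 (0.0592) or primary line 1 (0.0514) or 3 (0.0617), with every probe set (0.0647) and without both arrays of widest spread (0.0690). Against lung lines the difference of 0.69 ± 0.15 did not pass (adjusted p = 0.0557). It passed with the mouse number as a block (0.0162), without lung line 2 (0.86, adjusted p = 0.0420), with quantile normalization again (0.0354), without the dimmest 33.3% of genes (0.0364) and with an intensity trend (0.0488). Nrp2, its paralog, was 9.60, 9.84 and 9.48 in brain, 9.51, 9.36 and 9.44 in lung and 9.66, 9.46 and 9.32 in primary lines, and did not pass in any comparison. Kdr, which encodes the main signaling receptor for VEGF on endothelium, lay between 3.98 and 4.19, below background, in every line.

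For the ligands, Vegfa was 8.05, 8.05 and 7.65 in brain, 7.85, 7.82 and 7.72 in lung and 7.92, 8.05 and 8.26 in primary lines. Its log2 difference was -0.16 ± 0.12 in brain against primary lines (limma adjusted p = 0.624). In lung against primary lines it was -0.28 ± 0.12, with no overlap between the origins but an adjusted p of 0.975. Vegfb lay between 8.44 and 8.73 in all 9 lines. Pgf, the placental growth factor gene, was 6.57, 7.46 and 6.38 in brain, 6.33, 6.87 and 6.76 in lung and 6.36, 6.57 and 6.14 in primary lines, and brain line 2 was its highest. Of these 3 ligand genes 0 passed in any comparison. Vegfc and Vegfd, VEGF ligand genes outside the list, did not pass either. Vegfc was 6.89, 6.94 and 7.76 in brain lines, above all lung (6.14 to 6.61) and primary lines (6.30 to 6.63). Its log2 differences were 0.77 ± 0.22 against primary and 0.83 ± 0.22 against lung lines (limma adjusted p = 0.102 for both). Vegfd was lower in all brain lines than in any other (limma adjusted p = 0.522 against primary and 0.256 against lung lines).

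Angpt1 encodes angiopoietin-1, the agonist of the TIE2 receptor, which is held to stabilize vessels. It was 3.83, 3.64 and 4.21 in brain, 5.69, 5.89 and 6.10 in lung and 5.34, 5.34 and 6.28 in primary lines. The 3 brain lines lay at or below background and every other line more than a log2 unit above it, so no fold is given. The mean levels were 3.89, 5.89 and 5.65 in brain, lung and primary lines, and both differences passed (limma adjusted p = 0.00633 against lung and 0.00639 against primary lines). Both calls held with any 1 line left out, and the one against primary lines was lost with only the 6 arrays compared (0.0518). Angpt2, an angiopoietin gene outside the list, was 5.07, 4.84 and 4.87 in brain, 5.40 to 5.46 in lung and 5.22 to 5.68 in primary lines. It was thus lower in all brain lines than in any other. Its log2 differences of -0.47 ± 0.12 against primary and -0.49 ± 0.12 against lung lines did not pass (limma adjusted p = 0.0685 and 0.0707). Angpt4 (4.14 to 4.67) and Angptl6 (4.53 to 4.98) were low in all lines, and the TIE receptors Tek (3.65 to 3.95) and Tie1 (4.59 to 4.91) lay near or below background. Angptl4, a secreted inhibitor of lipoprotein lipase, was 6.21, 5.95 and 5.52 in brain, 5.31, 5.56 and 5.41 in lung and 5.62, 5.46 and 5.56 in primary lines. Brain lines 1 and 2 were above all other lines and brain line 3 was not. Its log2 differences of 0.35 ± 0.15 against primary and 0.47 ± 0.15 against lung lines did not pass (limma adjusted p = 0.301 and 0.173). Without brain line 3 both did (0.54, adjusted p = 0.0458, and 0.66, adjusted p = 0.0369).

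The remaining members showed small differences. Met, which encodes the receptor of hepatocyte growth factor, was 10.09, 10.25 and 10.34 in brain, 9.86, 10.07 and 10.09 in lung and 10.11, 10.05 and 9.53 in primary lines (0.33 ± 0.15 in brain against primary lines, limma adjusted p = 0.315). Its ligand gene Hgf lay between 3.06 and 3.29, below background. Apln, which encodes the vessel growth peptide apelin, was 8.83 to 9.34 in brain, 8.44 to 8.89 in lung and 8.48 to 9.01 in primary lines. Thbs2, which encodes an inhibitor of angiogenesis, was 4.66 to 4.98 over all lines, Nos3, the endothelial nitric oxide synthase gene, was 4.84 to 5.44, and Esm1, an endothelial proteoglycan gene, was 3.33 to 3.80, below background. In all, 8 of the 32 members were below 4.21 in every line: Pdgfd, Fgf2, Fgf7, Fgf21, Kdr, Tek, Hgf and Esm1. The 18 members above it in each origin that were not called in any comparison had log2 differences of -0.16 to 1.19 in brain against primary lines, -0.15 to 1.31 in brain against lung and -0.28 to 0.30 in lung against primary lines, and the upper ends of the first 2 ranges are Pdgfc.

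**Figure D3:**
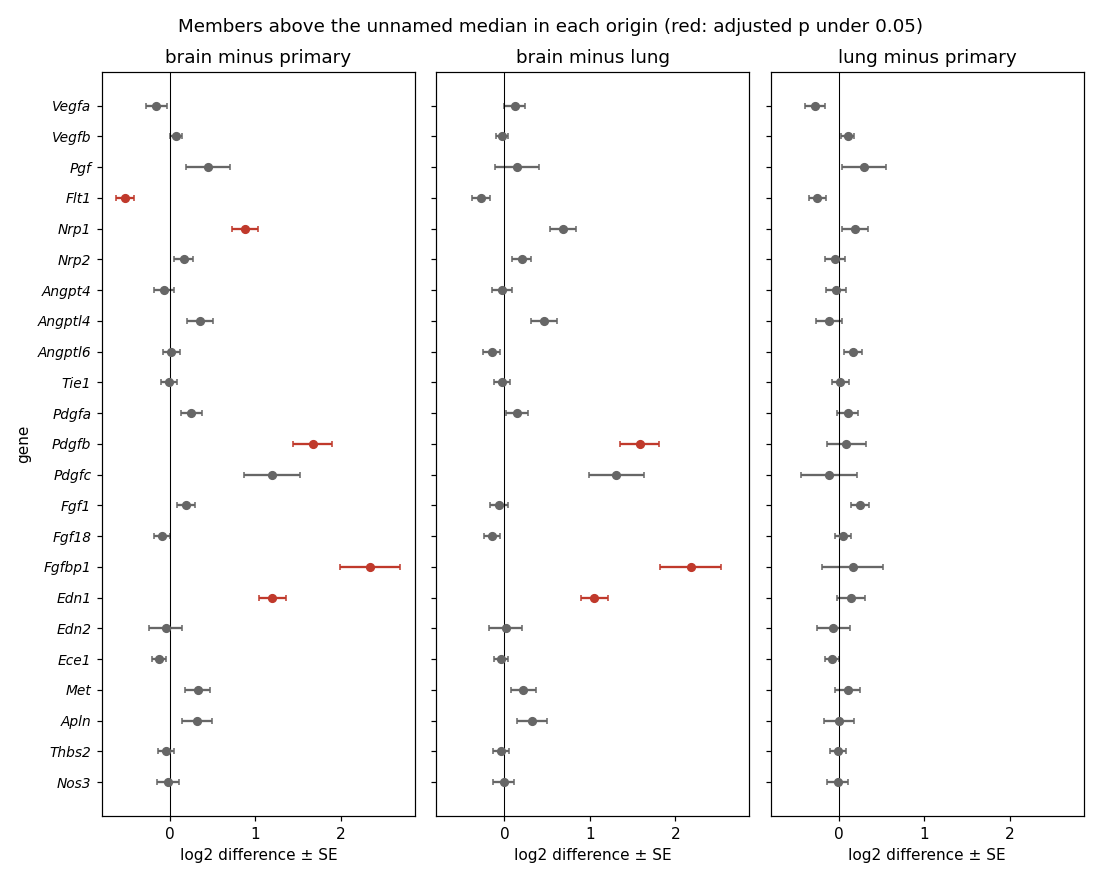
Log2 differences (x axis) with standard errors from limma, for the 23 members (y axis) whose mean was above 4.21 in each origin, in the 3 comparisons; red marks an adjusted p under 0.05. Fgfbp1, Pdgfb and Edn1 are red in both comparisons with brain lines, Nrp1 and Flt1 only against primary lines, and no gene is red in lung against primary lines.

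Other genes of the same pathways (84 listed receptors, further ligands, activators and inhibitors, 81 tested) were examined beside the members. They too were chosen with earlier results of these data known. In brain against primary lines 6 rose, 2 fell and 73 did not pass (9.88%, beside 3.13% of all genes). Thbs1, which encodes thrombospondin-1, an inhibitor of angiogenesis and activator of TGF-beta, was 11.71, 11.51 and 11.67 in brain, 10.59, 10.74 and 10.74 in lung and 10.67, 10.40 and 10.34 in primary lines. It was 2.24-fold higher than in primary lines (1.16 ± 0.10, limma adjusted p = 0.00116) and 1.92-fold higher than in lung lines (0.94 ± 0.10, adjusted p = 0.00453). The first call held under every alternative run, and the second was lost only without both arrays of widest spread (0.0513). Adamts1, which encodes a secreted protease with thrombospondin repeats that is known to restrain vessel growth, was 8.73, 9.29 and 9.10 in brain, 7.24, 7.58 and 8.15 in lung and 7.75, 7.61 and 6.98 in primary lines. It was 3.02-fold higher than in primary lines (1.59 ± 0.26, limma adjusted p = 0.0121) and 2.62-fold higher than in lung lines (1.39 ± 0.26, adjusted p = 0.0270). Without brain line 2 the adjusted p was 0.0509 and 0.0882, and the second call was also lost without brain line 3 (0.0927), lung line 1 (0.0937) or lung line 2 (0.118). Both were lost with every probe set (0.0544 and 0.0984) and without both arrays of widest spread (0.0537 and 0.193), and the second with only the 6 arrays compared (0.0714).

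Ece2, which encodes a second endothelin-converting enzyme, was 7.68, 7.82 and 7.71 in brain, 7.41, 7.58 and 7.69 in lung and 7.32, 7.28 and 7.28 in primary lines (0.45 ± 0.08 against primary lines, limma adjusted p = 0.0209). It lost its call without brain line 2 (0.0685) or primary line 1 (0.0635), 2 (0.0735) or 3 (0.0662) and with every probe set (0.0621), and its dimmer probe set lay between 4.07 and 4.32. St14, which encodes matriptase, an activator of the HGF precursor, rose against primary (0.67 ± 0.13, adjusted p = 0.0225) and lung lines (0.61 ± 0.13, adjusted p = 0.0423), and these calls held in 5 and 2 of the 9 fits that left out 1 line. Its levels were 9.96, 10.08 and 10.11 in brain, 9.33, 9.33 and 9.68 in lung and 9.55, 9.45 and 9.14 in primary lines. St14 lost the first call without brain line 2 (0.0722) or 3 (0.0716) or primary line 2 (0.0639) or 3 (0.0616), and the second without any brain line (0.0767 to 0.129), lung line 1 (0.138) or 2 (0.165) or primary line 1 (0.0547) or 2 (0.0730). Both were lost with every probe set, in a fit of just the 6 arrays and without both arrays of widest spread (adjusted p 0.0583 to 0.253). With the mouse number as a block the St14 call against lung lines was lost (0.0621). Ddah1, whose enzyme breaks down an inhibitor of nitric oxide synthases, rose against primary (1.01 ± 0.21, adjusted p = 0.0368) and lung lines (1.09 ± 0.21, adjusted p = 0.0330), calls that held in 2 and 3 of those 9 fits. Its levels were 9.28, 9.74 and 10.06 in brain, 8.45, 8.79 and 8.54 in lung and 8.34, 8.64 and 9.06 in primary lines. Ddah1 kept the first call only without brain line 1 or primary line 3 and the second only without brain line 1 or primary line 1 or 3, with adjusted p of 0.0589 to 0.123 in the fits that lost it. Both were also lost with every probe set, in a fit of just the 6 arrays and without both arrays of widest spread (0.0725 to 0.220). Sema3e, a ligand of plexin D1, rose against primary lines (0.56 ± 0.12, adjusted p = 0.0431), with 8.35, 8.59 and 8.62 in brain, 8.25, 8.41 and 8.32 in lung and 7.86, 8.24 and 7.77 in primary lines. That call of Sema3e held only without brain line 1 or primary line 2 (adjusted p 0.0634 to 0.142 without any other line), and it was lost under the same 3 other alternatives (0.121 to 0.167).

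The 2 that fell against primary lines were Vash2 and Serpinf1. Vash2, a vasohibin gene known to favor vessel growth, was 7.02, 7.16 and 7.39 in brain, 7.30, 7.37 and 7.44 in lung and 7.78, 7.75 and 8.20 in primary lines (-0.73 ± 0.13, limma adjusted p = 0.0193), a call lost without brain line 1 (0.0579) or 2 (0.0646), with each probe set tested (0.0692) and in a fit of just the 6 arrays (0.0905). Serpinf1, which encodes the inhibitor PEDF, was 4.61, 4.61 and 4.47 in brain, 4.75 in each lung line and 4.84, 4.97 and 4.88 in primary lines (-0.33 ± 0.07, adjusted p = 0.0315). Its call held only without lung line 1 (0.0548 to 0.108 without any other line) and was lost with each array centred on its median (0.0970) and under the same 3 other alternatives as Sema3e (0.0745 to 0.08997). In brain against lung lines the 4 called partners were Thbs1, St14, Ddah1 and Adamts1, all higher (4.94%, beside 1.98% of all genes). In lung against primary lines 0 of 81 passed in limma, with 5 at an unadjusted p under 0.05, beside 4.74% of all genes. The genes higher in brain lines thus include Pdgfb and Edn1, known to promote vessel growth, and Thbs1 and Adamts1, known to restrain it.

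**Figure D4:**
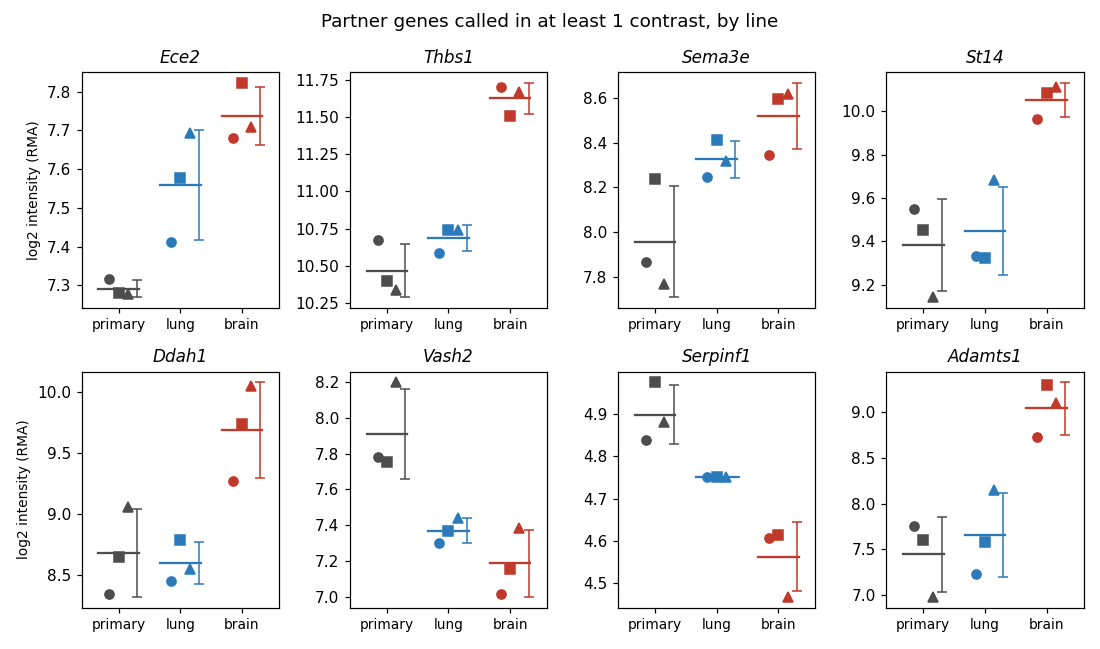
Log2 intensity (y axis) of the 8 partner genes called in at least 1 comparison, in each line by origin (x axis), with bars for the mean and whiskers for the SD of 3 lines. Thbs1 and Adamts1 lie higher in all brain lines than in any other, and the 3 lung lines hold 1 common value of 4.75 for Serpinf1.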

How the data were processed

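The authors deposited log2 intensities for 35557 probe sets on 9 Affymetrix arrays, and per the submitters' processing notes the tool was RMA. RMA corrects background, quantile-normalizes arrays and summarises each probe set. The log base is taken from the range of the values, and neither RMA's version nor its build is stated in the sources used here. Precision is limited by how many arrays there are.

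Probe sets with exactly 1 symbol in the platform annotation (21789, while 1621 had several and 12147 none) were kept, and the brightest over all 9 arrays stood for a gene. Limma 3.58.1 in R 4.3.3 was fitted to the 9 arrays together, 1 coefficient for each origin (6 residual and 3.72 prior degrees of freedom), two-sided, with Benjamini-Hochberg adjustment over all 19938 genes. Errors after ± are the model's standard errors. An exact permutation of 3 lines against 3 cannot go below 0.1 and was not used. On simulated data for brain against primary lines, over 19938 genes, the fit called 91% of 100 genes changed by 1 log2 unit and 100% of 100 changed by 2. The simulated noise was independent, with the same spread in every array and no repeated values. The real arrays differ in spread and hold equal values, so these shares need not hold for them.

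The members and the partner list were chosen with earlier results of these data known, so their counts are descriptions. Every member was accounted for. Members and partners called in any comparison were named with their values, as were members with non-overlapping lines and a log2 difference of at least 0.5. A gene with an origin mean below 4.21 is given by its levels. In bulk RNA, fewer cells of a type and less RNA per cell cannot be told apart.

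The sample titles number the mice 1 to 3 in every origin, while the design text gives 9 independent mice, so the labels do not say that a number marks a shared animal or batch. Deviations of same-numbered lines from their origin means had correlations over genes of 0.284, 0.130 and 0.241 for brain with lung, each above 0.1, and 0.0666, -0.00074 and -0.0442 for brain with primary and 0.221, 0.0785 and 0.00798 for lung with primary lines. The mouse number as a block is therefore given for brain against lung lines. That pairing rests only on these correlations in the same values and is not given by the labels. Of the members, 27 matched a promoter entry of RefSeq (GRCm38.p6).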

Additional observations from a re-analysis of the deposited data

How the results depend on the processing

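Counts of called members are given first. In brain against primary lines the 6 became 3 with only the 6 arrays compared and 4 to 7 with 1 line left out. They became 4 with every probe set as its own feature, at an adjusted p under 0.01 and without both arrays of widest spread. In brain against lung lines the 4 became 1 with every probe set as its own feature, 2 with only the 6 arrays compared, 1 at an adjusted p under 0.01, 2 without both arrays of widest spread (an alternative chosen after seeing the data) and 2 to 5 with 1 line left out, the lowest without lung line 2. For the F test over the 3 origins the 5 became 1 with every probe set, 2 at an adjusted p under 0.01, 1 without both arrays of widest spread and 3 to 5 with 1 line left out. In lung against primary lines the count was 0 under each of 19 alternatives. With the mouse number as a block the member counts were 7 for brain against primary, 6 for brain against lung and 6 for the F test, and over all genes 839, 566 and 604. Pdgfc then passed against primary lines too (0.0345), where same-numbered lines were not correlated above 0.1. No named gene changed the sign of a called difference under the alternatives run.

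Over all genes the counts were 624 for brain against primary and 395 for brain against lung lines. They became 210 and 75 with every probe set, 197 and 107 in fits of just the 6 arrays, 157 and 66 at an adjusted p under 0.01, 323 and 87 without both arrays of widest spread, and 273 to 556 and 69 to 417 with 1 line left out. The F test called 470 of all genes, which became 76 with every probe set and 81 at an adjusted p under 0.01. Without both arrays of widest spread it called 114, and with 1 line left out 160 to 370. Centring each array on its median turned the brain against primary split of 311 higher and 313 lower into 313 and 199, while the members kept 4 higher and 2 lower. For partner genes the 8 and 4 became 1 and 1 with every probe set, 3 and 1 in fits of just the 6 arrays, 1 and 1 at an adjusted p under 0.01, 3 and 0 without both arrays of widest spread, and 1 to 7 and 1 to 5 with 1 line left out. Signal over background limits the 8 members that lay below 4.21 in every line.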

Other observations

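Some deposited values are exactly equal in several lines. Of all genes 35.1% had 1 value shared by 3 or more of the 9 lines, and the share was 60.4% among genes with a mean below 4.21 and 24.9% among the others. Among the members this held for 7 of 32: Nos3 and Fgf7 had 5 equal lines, Vegfb, Kdr and Hgf had 4, and Fgf21 and Esm1 had 3. The SD was 0 for Fgf7 in lung lines and for Kdr in primary lines. None of the 6 called members was among the 7. The called partner Serpinf1 had an SD of 0 in lung lines, which enter the shared estimate of spread and can make its standard error too small.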
